A study of Homo sapiens with 14 samples.

Results

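Latrophilins, FLRTs and teneurins are 3 small families of surface proteins that bind one another across the gap between cells. The 10 genes, ADGRL1, ADGRL2 and ADGRL3, FLRT1, FLRT2 and FLRT3, and TENM1, TENM2, TENM3 and TENM4, were taken by symbol from the RNA-seq tables of LNCaP and DU145 prostate cancer cells. All 10 were found among 44591 genes in the LNCaP table and among 24199 features in the DU145 table. The families were selected on their values in LNCaP cells, where ADGRL3 stood at 0 counts in 1 library and at 49 in the other, so those values are given as a description without a test.

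LNCaP is a human prostate cancer line that is sensitive to androgen, and DU145 is one that grows without androgen. The LNCaP data were 1 library of parental cells, without a genetic change by the labels, and 1 library of LNCaP-ENZ cells, a resistant line kept in 20 µM of the antiandrogen drug enzalutamide, which the series text dates to 30 days of treatment. The DU145 data were 3 libraries of cells with a non-target hairpin (shCON) and 3 of cells with a stable lentiviral hairpin against the transcription factor PAX6 (shPAX6). The shPAX6 labels do not name the hairpin that was used, and nothing in the labels says whether the 3 libraries of a group came from separate cultures, so p-values measure the spread between these libraries only. The methods give 3 replicates for each line, while the LNCaP table holds 1 column per condition. The 6 ATAC-seq samples were not analysed here.

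Latrophilins are adhesion G-protein-coupled receptors, and the founding member was found as a receptor for alpha-latrotoxin, a component of black widow venom. FLRTs are single-pass proteins with leucine-rich repeats that bind latrophilins and the UNC5 netrin receptors. Teneurins are very large single-pass proteins that also bind the outer part of latrophilins. In the nervous system these contacts guide axons and help to specify synapses.

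For the 5 genes that differed most between the LNCaP libraries, a promoter window of 300 bases is shown, because it lets the base composition at the start of genes that were higher and genes that were lower be read side by side. The windows are from RefSeq on GRCh38.p14, and where a gene has several start sites the one with the most CpG pairs is shown. The CpG pairs, the sites of cytosine methylation, are in capitals. ADGRL3 is shown at chr4:61200076-61200375 on the plus strand, TENM2 at chr5:167754679-167754978 on the plus strand, ADGRL2 at chr1:81800684-81800983 on the plus strand, FLRT2 at chr14:85533099-85533398 on the plus strand and TENM1 at chrX:125204263-125204562 on the minus strand.
ADGRL3 promoter: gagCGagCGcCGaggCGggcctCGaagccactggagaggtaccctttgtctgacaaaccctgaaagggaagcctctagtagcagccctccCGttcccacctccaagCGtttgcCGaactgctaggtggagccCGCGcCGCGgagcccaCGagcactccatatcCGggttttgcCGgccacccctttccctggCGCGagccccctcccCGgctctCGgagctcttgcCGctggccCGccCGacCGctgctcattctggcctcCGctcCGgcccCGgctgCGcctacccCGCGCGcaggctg
TENM2 promoter: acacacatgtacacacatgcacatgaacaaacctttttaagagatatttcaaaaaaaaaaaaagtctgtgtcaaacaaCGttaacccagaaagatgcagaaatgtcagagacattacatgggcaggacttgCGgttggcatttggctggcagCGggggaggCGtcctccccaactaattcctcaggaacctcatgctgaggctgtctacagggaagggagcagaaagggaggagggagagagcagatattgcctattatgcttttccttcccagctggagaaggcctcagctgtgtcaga
ADGRL2 promoter: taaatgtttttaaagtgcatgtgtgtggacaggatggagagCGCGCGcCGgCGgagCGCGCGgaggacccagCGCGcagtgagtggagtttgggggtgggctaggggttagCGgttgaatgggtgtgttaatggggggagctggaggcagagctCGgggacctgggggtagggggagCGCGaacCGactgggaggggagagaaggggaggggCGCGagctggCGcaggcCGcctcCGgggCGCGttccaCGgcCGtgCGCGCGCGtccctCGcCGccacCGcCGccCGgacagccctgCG
FLRT2 promoter: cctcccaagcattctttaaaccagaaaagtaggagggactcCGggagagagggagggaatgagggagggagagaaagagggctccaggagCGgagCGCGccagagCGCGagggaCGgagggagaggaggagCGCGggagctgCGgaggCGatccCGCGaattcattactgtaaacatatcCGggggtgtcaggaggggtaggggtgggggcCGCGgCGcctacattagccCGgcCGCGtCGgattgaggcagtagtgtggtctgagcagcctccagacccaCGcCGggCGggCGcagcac
TENM1 promoter: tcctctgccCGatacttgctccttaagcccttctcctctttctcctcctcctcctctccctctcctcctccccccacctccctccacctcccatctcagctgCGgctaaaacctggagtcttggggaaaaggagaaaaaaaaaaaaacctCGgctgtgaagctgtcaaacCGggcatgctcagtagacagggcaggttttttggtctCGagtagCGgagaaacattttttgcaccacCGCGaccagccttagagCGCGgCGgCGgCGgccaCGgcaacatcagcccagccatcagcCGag

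The ADGRL3 window held 30 CpG pairs and the TENM2 window 4, although both genes were higher in LNCaP-ENZ. The windows of the genes that were lower held 34 pairs in ADGRL2, 25 in FLRT2 and 15 in TENM1. The median over the 35116 promoters in the table was 14, but these windows were picked for their CpG pairs, and other windows of the same genes held as few as 4 in ADGRL2 and 1 in TENM1, so no comparison with that median is drawn. The GC content was 69.7% for ADGRL3, 47.3% for TENM2, 70.0% for ADGRL2, 65.0% for FLRT2 and 57.3% for TENM1 in these same windows. Of the 10 genes, 9 had at least 1 window in the table.

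Motifs were searched on both strands of all windows of these 9 genes. AGAACA, the core of a steroid hormone response element, was in 14.8% of all promoters and in no window of these genes. TATAAA, the TATA box, was in 11.5% of all promoters and occurred 2 times in the other TENM2 window, at chr5:167072992-167073291, and 1 time in the ADGRL2 window at chr1:81801192-81801491. CACGTG, an E-box, was in 7.26% of all promoters and occurred 1 time in the FLRT2 window at chr14:85529894-85530193. These matches describe letters in short windows and not binding.

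The parental and LNCaP-ENZ libraries held 20468001 and 17945722 counts. Levels are given as raw counts, as CPM, the count scaled to a common library total, and as TPM, which also divides by gene length and is the scale on which genes are compared. A gene was called higher or lower when the log2 ratio of CPM + 0.1 was at least 1 in size, the 95% counting interval of the ratio left out 0, and both libraries together held at least 10 counts. Intervals cover counting error only, and with 1 library per condition the difference between the lines has no replicate check. Of 19235 genes with enough counts, 542 (2.82%) were called higher in LNCaP-ENZ and 2242 (11.7%) lower. The overall median was -0.18 on the log2 scale. With DESeq2 size factors the split was 814 higher and 1578 lower. In bulk RNA, fewer cells of a type and less RNA per cell cannot be told apart.

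In LNCaP cells, ADGRL3 and TENM2 were higher in the LNCaP-ENZ library, and ADGRL2, FLRT2 and TENM1 were lower, while ADGRL1, by far the most abundant of the 10, barely differed. Of the 10 genes 7 had enough counts, and among them 2 were called higher and 3 lower, beside 2.82% and 11.7% of all genes. Since the genes were chosen by this contrast, nothing is read from that count. FLRT1 was not called, and FLRT3, TENM3 and TENM4 had too few counts to be compared.

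**Figure D1:**
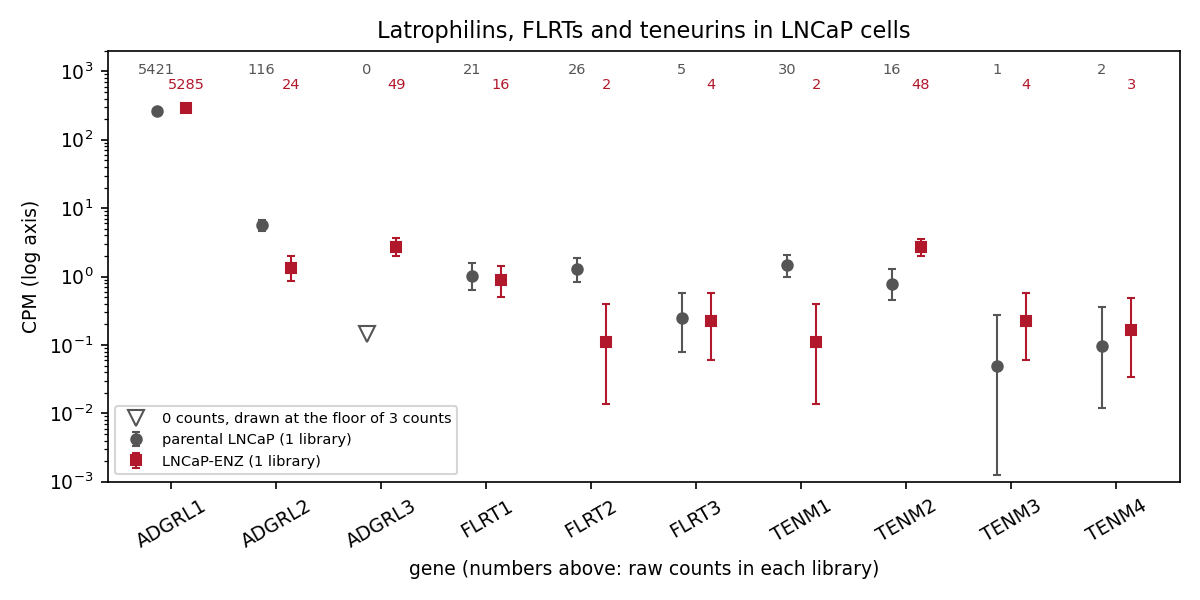
Level of each gene (x axis) in CPM on a log axis in the parental and LNCaP-ENZ libraries, with 95% Poisson intervals as bars and the raw counts printed above. ADGRL1 sits at 264.9 and 294.5 CPM, all others are below 7 CPM, and the triangle marks ADGRL3 at 0 parental counts, drawn at the floor of 3 counts.

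ADGRL1 (latrophilin 1, chr19:14258549-14316997, minus strand, GRCh37 as for all gene positions here) had 5421 counts in parental cells and 5285 in LNCaP-ENZ. These are 35.2 and 36.9 TPM, which placed it at the 90.1 and 91.0 percentile of the protein-coding genes with a count. The log2 ratio of CPM + 0.1 was 0.15, with an interval from 0.10 to 0.21. ADGRL1 carried 97.4% of the summed latrophilin TPM in parental cells and 98.9% in LNCaP-ENZ, so the changes in its paralogs left the family sum almost as it was, at 36.1 and 37.3 TPM.

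ADGRL2 (latrophilin 2, chr1:82165455-82458422, plus strand) had 116 counts in parental cells and 24 in LNCaP-ENZ, or 0.947 and 0.210 TPM. The log2 ratio was -2.0, with an interval from -2.78 to -1.44, and 453 genes (2.36%) had a smaller ratio. In parental cells its TPM was 37.2 times lower than that of ADGRL1.

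ADGRL3 (latrophilin 3, chr4:62066974-62944053, plus strand) is a gene best known for its variants in attention deficit studies and for its expression in brain. It had 0 counts in parental cells and 49 in LNCaP-ENZ, where it stood at 2.73 CPM (interval 2.02 to 3.61) and 0.209 TPM. Against the floor of 3 counts in the parental library, 0.147 CPM, the measured level was at least 18.6-fold higher, and the counting interval of the log2 ratio began at 3.87. The fitted log2 ratio of 4.82 depends on the value added to CPM, and 3 of the 19235 genes had a larger one. The level reached was low, at the 18.6 percentile of protein-coding genes with a count, almost the same TPM as ADGRL2 in the same library.

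Among the 19333 genes with 0 parental counts, 2217 had at least 1 count in LNCaP-ENZ, and ADGRL3 had the most. By the same measure the next were GBP4, an interferon-induced GTPase, with 25 counts, the neurotensin receptor NTSR2 with 20, RIMBP3B with 19 and, tied at 16, the VEGF receptor KDR and an antisense transcript, ENSG00000270344.1. ADGRL3-AS1, annotated on the opposite strand at the 3′ end of ADGRL3, had 0 counts in both libraries.

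**Figure D2:**
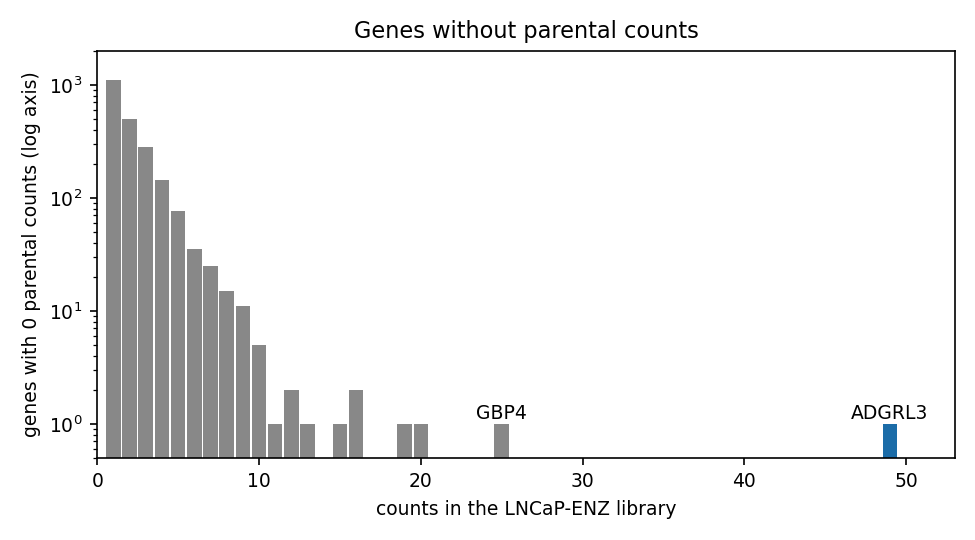
Number of genes (y axis, log scale) by their counts in the LNCaP-ENZ library (x axis) among genes with 0 counts in the parental library. ADGRL3, in blue at 49 counts, lies apart from the next gene, GBP4, at 25.

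FLRT2 (chr14:85996369-86095040, plus strand), a ligand of latrophilins and of UNC5 receptors, had 26 counts in parental cells and 2 in LNCaP-ENZ, or 0.135 and 0.0112 TPM. The log2 ratio was -2.70, with an interval from -6.63 to -1.51, and 147 genes (0.764%) had a smaller ratio. With 2 counts left, the interval is wide. Of 6178 genes with 10 to 100 parental counts, 119 had a ratio at or below that of FLRT2. The nearest in ratio among these were LINGO3 with 26 and 2 counts, ZNF876P with 33 and 3, and CCDC141, CELF3 and DNAH9 with 11 and 0 each.

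FLRT1 (chr11:63871362-63886645, plus strand) had 21 counts in parental cells and 16 in LNCaP-ENZ, with a log2 ratio of -0.18 and an interval from -1.24 to 0.81. The interval reaches past 2-fold lower, so the counts do not exclude a difference of that size. FLRT1 lies within MACROD1, which is on the opposite strand and had 713 and 717 counts. FLRT3 (chr20:14304639-14318313, minus strand) had 5 and 4 counts, and lies within MACROD2 on the opposite strand, which also had 5 and 4 counts. In the annotation the exons of neither pair overlap. No source says that strand was used in counting.

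TENM1 (teneurin 1, chrX:123509753-124097666, minus strand) had 30 counts in parental cells and 2 in LNCaP-ENZ, or 0.119 and 0.00850 TPM. The log2 ratio was -2.89, with an interval from -6.83 to -1.74, and 99 genes (0.515%) had a smaller ratio. In the annotation an exon of TENM1 overlaps one of STAG2 on the opposite strand, which had 1202 and 465 counts (log2 ratio -1.18), although the positions in the authors' table do not overlap for this pair. TENM2 (teneurin 2, chr5:166711843-167691162, plus strand) moved the other way, with 16 counts in parental cells and 48 in LNCaP-ENZ, or 0.0822 and 0.265 TPM. Its log2 ratio was 1.65, with an interval from 0.93 to 2.69, and 213 genes (1.11%) had a larger one. TENM3 (chr4:183164584-183724177, plus strand) had 1 and 4 counts, and TENM4 (chr11:78364328-79151695, minus strand) had 2 and 3. Both were at or near the floor of 3 counts, so no difference was detectable at this depth.

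**Figure D3:**
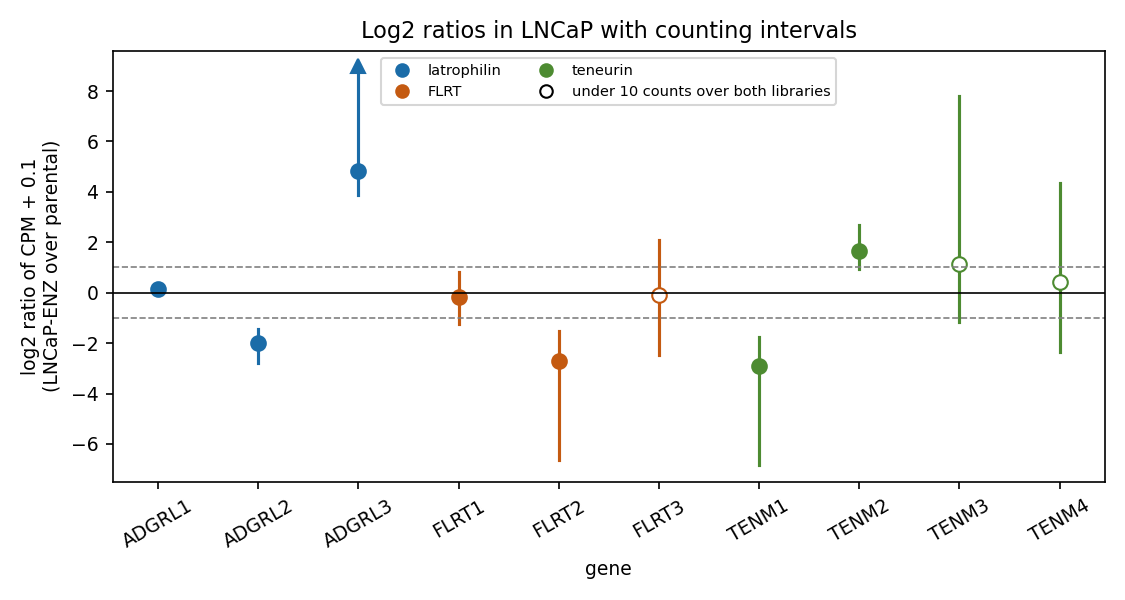
Log2 ratio of CPM + 0.1, LNCaP-ENZ over parental (y axis), for each gene (x axis), with 95% counting intervals as lines, the 2-fold bounds dashed, and open points for genes under 10 counts. ADGRL3 (arrow: no upper bound) and TENM2 lie above 0 and ADGRL2, FLRT2 and TENM1 below it, so the latrophilins and the teneurins each hold a gene called in either direction.

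In order of TPM, parental cells ran ADGRL1, ADGRL2, FLRT1, FLRT2, TENM1, TENM2, FLRT3, TENM4 and TENM3, with ADGRL3 at 0. The counting intervals of FLRT2, TENM1, TENM2 and FLRT3 all overlapped, and that of FLRT3 also overlapped those of TENM4 and TENM3. In LNCaP-ENZ the order after ADGRL1 was FLRT1, TENM2, ADGRL2 and ADGRL3, with overlapping intervals that together ran from 0.135 to 0.439 TPM. FLRT3, TENM3, TENM4, FLRT2 and TENM1 followed at 0.0545 TPM or less. In LNCaP-ENZ, TENM2 and ADGRL3 thus had TPM values close to that of ADGRL2, while in parental cells ADGRL2 was 11.5 times TENM2.

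In DU145 cells, whose values are read here as FPKM (a level per transcript length and library size, without counts), ADGRL1 was again the main member and the others were near or at 0. ADGRL1 stood at 8.42, 7.93 and 9.26 FPKM in shCON libraries 1 to 3 and at 4.23, 7.23 and 5.37 FPKM in shPAX6 libraries 1 to 3. All 3 shPAX6 values were below all 3 shCON values, and shPAX6 library 2 was the closest to the controls. Groups that did not overlap were also found for 26.7% of the 13574 features tested. The means were 8.54 ± 0.673 and 5.61 ± 1.51 FPKM (SD, n = 3 each), and the log2 fold change of FPKM + 0.1 was -0.63 (SE 0.219) with an unadjusted p = 0.0226 and an adjusted p = 0.200 (limma, Benjamini-Hochberg over all features tested).

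The difference in ADGRL1 thus did not pass the adjustment. Without shPAX6 library 2 it did, at -0.82 with an adjusted p = 0.0417 in limma, and over the libraries left out in turn the log2 fold change ran from -0.82 to -0.44. With a correction for GC content it was -0.28 with an adjusted p = 0.569 in limma. Over all alternatives the adjusted p of ADGRL1 in limma ran from 0.0417 to 0.664. ADGRL1 has a GC content of 61.4%, and across features the log2 fold change was lower at higher GC content (Spearman correlation -0.36 over 12009 features that share the same 6 libraries, a description). Among protein-coding features above 0, ADGRL1 lay at the 57.4 to 59.1 percentile in shCON and at the 49.2 to 53.6 percentile in shPAX6.

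FLRT1 stood at 0.350, 0.186 and 0.406 FPKM in shCON and at 0.207, 0.216 and 0.334 FPKM in shPAX6. The groups overlapped, and the mean log2 difference of -0.21 became 0.07 with quantile normalization. FLRT3 stood at 0.262, 0.178 and 0.247 FPKM in shCON and at 0.146, 0.373 and 0.122 FPKM in shPAX6. These groups overlapped too, since shPAX6 library 2 held the highest value of all 6, and the mean log2 difference of -0.14 became 0.16 with quantile normalization. Both genes were below the mean of 0.5 FPKM needed for the test.

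**Figure D4:**
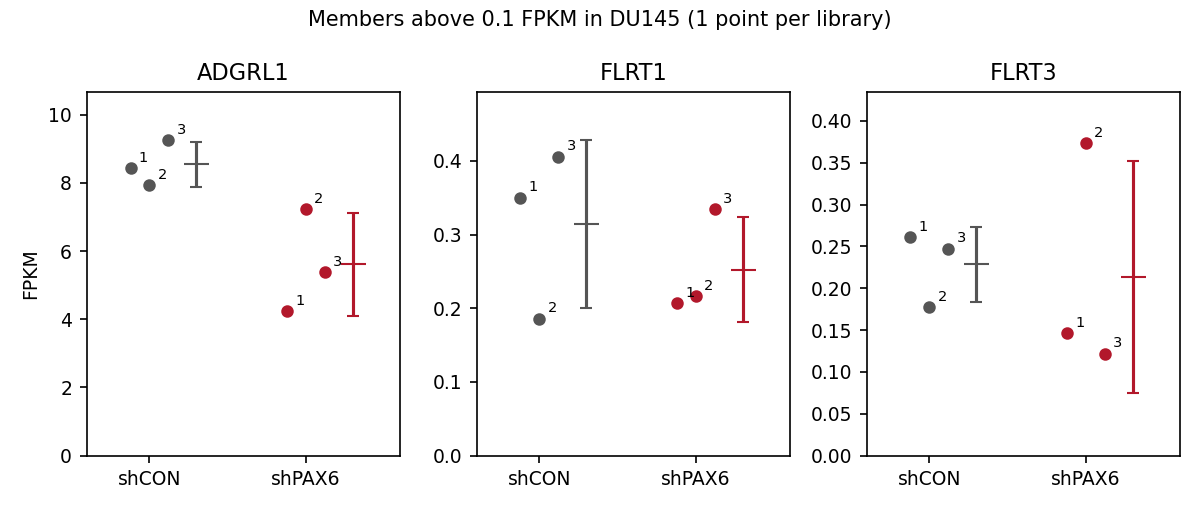
FPKM (y axis, from 0) of ADGRL1, FLRT1 and FLRT3 in DU145 shCON and shPAX6 libraries, with 1 numbered point per library and the mean with SD (n = 3) beside it. The ADGRL1 groups do not overlap (7.93 to 9.26 against 4.23 to 7.23 FPKM), while those of FLRT1 and FLRT3 do.

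Of the other 7 members, ADGRL3, FLRT2, TENM1 and TENM4 were listed at 0 in all 6 libraries. ADGRL2 was listed at 0.00821 FPKM in shCON library 3 only and TENM2 at 0.0210 FPKM in shCON library 2 only. TENM3 was listed between 0 and 0.0174 FPKM. The test therefore covered 1 of the 10 members. By limma 0 members were called at an adjusted p under 0.05, beside 163 of 13574 features (1.20%). At an unadjusted p under 0.05 in limma there was 1 member, ADGRL1, beside 2480 of all features (18.3%). The genes that differed between the LNCaP libraries could thus not be followed into the knockdown. PAX6 itself stood at 0.839, 1.23 and 1.57 FPKM in shCON and at 0.0153, 0.274 and 0.0778 FPKM in shPAX6, all 3 lower, with a log2 fold change of -2.69 and an adjusted p = 0.0539 in limma. In LNCaP cells PAX6 had 11 counts in the parental library and 4 in LNCaP-ENZ, a log2 ratio of -0.98 with an interval from -3.38 to 0.49.

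The proteins that these families bind were looked at next, as a list of 15 genes for receptors, scaffolds and other proteins. In LNCaP cells 12 had enough counts, of which 1 was called higher and 4 lower (2.82% and 11.7% of all genes), with a median log2 ratio of -0.43 beside -0.18 for all genes. UNC5A, a netrin receptor that FLRTs bind, had 66 counts in parental cells and 10 in LNCaP-ENZ (log2 ratio -2.34, interval -3.66 to -1.56). Its paralog UNC5B had 296 and 492 counts, at a log2 ratio of 0.92, just inside the 2-fold bound. The presynaptic neurexins, which bind latrophilins, were lower in NRXN2 with 26 and 6 counts (-1.66) and in NRXN3 with 246 and 79 (-1.43). RND1, a small GTPase reported to bind FLRTs and UNC5B, had 35 and 8 counts (-1.73). SHANK1, a postsynaptic scaffold of latrophilins, was the gene called higher, with 7 and 16 counts (1.17, interval 0.02 to 2.91). It was not called with a pseudocount of 1 or with TPM. With TMM factors, DESeq2 size factors or the median ratio set to 0, 2 partners were called higher. Among the most abundant partners in parental TPM were MBD1 at 9.65 and SHANK3 at 5.12.

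A list of 38 other trans-synaptic adhesion genes had 24 members with enough counts, of which 0 were called higher and 7 (29.2%) lower, beside 11.7% of all genes. Their median was -0.61 on the log2 scale. The 7 were the neuroligin NLGN3 with 27 and 10 counts, LRRTM2 with 17 and 4, SLITRK5 with 287 and 103, the cell adhesion molecules CADM1 with 42 and 15 and CADM2 with 12 and 2, the netrin-G ligand LRRC4B with 35 and 3, and the cerebellin CBLN3 with 52 and 19. With a pseudocount of 1, 2 of them were called. The most abundant in parental TPM were the receptor phosphatases PTPRF at 124 and PTPRS at 62.8 and the calsyntenin CLSTN1 at 81.0, and none of these was called.

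In DU145 cells 7 partners were tested, 0 were called by limma and 2 had an unadjusted p under 0.05, as did 2480 (18.3%) of all 13574 features. UNC5A stood at 1.62, 1.23 and 1.46 FPKM in shCON and at 0.286, 0.529 and 0.552 FPKM in shPAX6. The groups did not overlap, and the log2 fold change was -1.50 with an adjusted p = 0.0683 in limma. Groups without overlap were found for 3 of the 7 partners tested, beside 26.7% of all features tested. SHANK3 stood at 1.44, 1.85 and 2.48 FPKM in shCON and at 0.628, 1.34 and 1.05 FPKM in shPAX6 (log2 fold change -0.89). The most abundant partners were MBD1, FGFR1 and RND1, at 20.1, 19.4 and 3.51 FPKM on average in shCON.

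Of the other adhesion genes 9 were tested, 0 were called by limma and 4 had an unadjusted p under 0.05, beside the same 18.3% of all features. CADM4 stood at 10.6, 9.23 and 9.45 FPKM in shCON and at 5.43, 5.11 and 5.92 FPKM in shPAX6. The groups were well apart, and the log2 fold change was -0.82 with an adjusted p = 0.0560 in limma. NLGN2 stood at 16.9, 16.7 and 18.6 FPKM in shCON and at 3.30, 11.3 and 11.1 FPKM in shPAX6, with library 1 far below the other two. PTPRF was the most abundant, at 80.4, 75.7 and 104 FPKM in shCON and 19.9, 69.7 and 43.7 FPKM in shPAX6, followed by CLSTN1 at 49.5 FPKM on average in shCON. In both NLGN2 and PTPRF the groups did not overlap and shPAX6 library 1 was the lowest. Groups without overlap were found for 5 of the 9 adhesion genes tested, beside the same 26.7% of all features. The medians of the log2 fold changes were -0.50 for the partners and -0.65 for the adhesion genes beside -0.12 for all features, and -0.29 and -0.30 beside 0.02 with the GC correction. Without shPAX6 library 1, or without library 2, 1 partner and 3 adhesion genes were called, in fits that called 920 (6.78%) and 903 (6.65%) of all features.

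**Figure D5:**
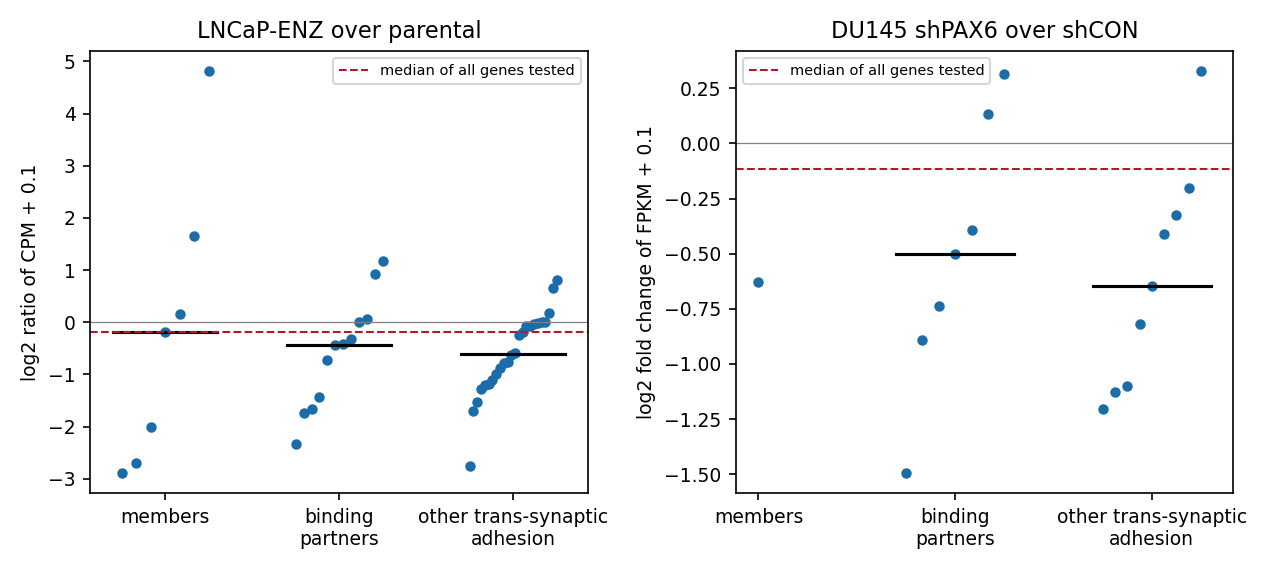
Log2 ratio in LNCaP (left) and log2 fold change in DU145 (right) for each gene with enough counts or tested, by list, with black lines at list medians and the red dashed line at the median of all genes. In LNCaP the members spread from -2.89 to 4.82 around the overall median, while in DU145 ADGRL1 (-0.63) is the only member tested.

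Markers of the lines and of other cells were read from fixed lists. Of the luminal markers, FOLH1 had 8171 counts in parental and 7894 in LNCaP-ENZ cells, while KLK2 with 1830 and 709 and TMPRSS2 with 5394 and 1471 were called lower. The neuronal and neuroendocrine markers were low, at 211 and 162 counts summed over 11 genes, most of them from ENO2, and INSM1 and STMN2 had 0 counts in both. The endothelial markers summed to 349 and 46 counts, of which VWF, called lower, gave 345 and 27, while KDR was called higher with 0 and 16, and CDH5 and TEK were at 0. The fibroblast markers summed to 492 and 288 counts, with COL1A2, COL3A1, DCN and LUM at 0, and the leukocyte markers to 564 and 542, of which CD68 gave 507 and 458, while ITGAM was called higher with 1 and 14. Of the DU145 markers, KRT18 stood at 93.2 and 87.6 TPM in parental and LNCaP-ENZ cells, and VIM at 33.3 and 24.1 TPM. KRT7, CAV1 and CD44 were at 1.20 TPM or less in both. In DU145, VIM, KRT7 and KRT18 were high, and the luminal markers KLK2, TMPRSS2 and FOLH1 were listed at 0 in all libraries. There the summed DU145 markers were 2640 to 2920 FPKM in shCON and 3110 to 4990 in shPAX6, and the leukocyte list, nearly all CD68, was 36.7 to 39.6 and 24.8 to 26.7 FPKM. PTPRC and CD3E were listed at 0 in all 6. The part of these differences in the levels of the 10 genes was not tested.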

How the data were processed

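RNA-seq tables of 8 libraries were used. The paper's methods describe oligo-dT primed cDNA, alignment by HISAT2 to GRCh37 and quantification by StringTie. Their versions are not given in the sources used here, and the labels describe other library kits. The deposited LNCaP values are raw counts per gene and TPM, in which the authors rescaled the count over gene length. For DU145 the deposited values carry no unit and were treated as FPKM, so the depth of these libraries is unknown and no count test was run.

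The 10 genes and the gene lists were chosen with earlier results of these data known. LNCaP counts were divided by library totals, and ratios were given on log2(CPM + 0.1) with 95% Clopper-Pearson intervals. DU145 was fitted with limma 3.58.1 (R 4.3.3, eBayes with an intensity trend, two-sided) on log2(FPKM + 0.1) over the 13574 features that averaged 0.5 FPKM or more, and p-values were adjusted by Benjamini-Hochberg and read at 0.05. TMM factors came from edgeR 4.0.16 and size factors from DESeq2 1.42.0. Named genes were the 10 members, list genes called in either table, the 3 highest of each list in each line, PAX6, and the genes most like ADGRL3 (most LNCaP-ENZ counts with 0 parental counts) and FLRT2 (nearest ratio among genes with 10 to 100 parental counts). UNC5B and CADM4 were added after their values were seen, as were the alternatives for the partner and adhesion lists. Gene positions are those of the authors' table. The counting interval and the main limma fit were tested on simulated data. A few list genes within this naming are not reported here.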

Additional observations from a re-analysis of the deposited data

How the results depend on the processing

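In LNCaP, 5 members were at or past 2-fold under every alternative run, 2 higher and 3 lower. The alternatives were pseudocounts of 1 and 0.01, TMM factors, DESeq2 size factors, the median ratio set to 0, TPM, and no minimum of counts. The size of a ratio at low counts depended on the pseudocount. With 1 in place of 0.1 the log2 ratio of ADGRL3 was 1.90, of FLRT2 -1.03, of TENM1 -1.15 and of TENM2 1.04. With TPM in place of CPM they were 1.63, -1.08, -1.01 and 1.00, so FLRT2, TENM1 and TENM2 were close to the 2-fold bound. The 3 rescalings moved the median of all genes from -0.18 to between -0.04 and -0.01, and the log2 ratio of ADGRL1 from 0.15 to at most 0.33. Genes called over the whole LNCaP table ran from 157 to 814 higher, and from 961 to 2479 lower. In DU145, 0 members were called except without shPAX6 replicate 2, so leaving out each library gave 0 to 1. With a replicate block 0 members and 0 features were called (adjusted p = 0.428 for ADGRL1 in limma), with GC correction and the replicate block 0 members and 7 features, and without a block 0 members and 163 features. Same-numbered libraries did not deviate together (correlations of -0.17, -0.37 and 0.05), which does not settle whether they shared a culture or a batch. Calls over all features ran from 100 to 236 under the other settings, and from 0 to 920 with 1 library left out. For the DU145 lists, 1 partner was called with a pseudocount of 1 or without the trend and 1 adhesion gene without the filter, and for LNCaP 2 genes of each list were called lower with a pseudocount of 1. For FLRT1 and FLRT3 in DU145 the sign turned with the scaling. At 1 library per condition, LNCaP differences carry counting error only, and members under 10 counts could not be compared.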
